A study of Saccharomyces cerevisiae with 38 samples.

Results

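The comparison described here asked what loss of GCN5 adds to the mRNA pattern of yeast (Saccharomyces cerevisiae) cells whose TAF1 is impaired. It set the 2 arrays of the double mutant gcn5 ts2 against the 6 arrays of ts2, which makes 8 of the 38 arrays of the study, chosen by their titles. Every array was a 2-colour glass array that compared polyA RNA of 1 test strain with RNA of the wild-type (WT) strain yMD13 in the other dye. The ts2 strain (yMD14) carried a temperature-sensitive allele of TAF1, the gcn5 strain (yJS4) a mutated GCN5 and normal TAF1, and the gcn5 ts2 strain (yJS5) both mutations. All cultures, WT included, grew in CSM-HIS medium to an OD600 of about 0.8 and were then shifted to 37 °C for 45 minutes. The heat shift is therefore common to both sides of every array, and none of these arrays sampled unshifted cells. Each mutant is known from 1 strain number, and no label tells separate cultures from repeat hybridisations. P-values then measure the spread between arrays, which may be technical.

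Gcn5 is a histone acetyltransferase, the catalytic subunit of the SAGA and ADA coactivator complexes, and acetylates lysines of histone H3 at promoters. Taf1 is the largest subunit of TFIID, the general factor that brings the TATA-binding protein to promoters. In yeast, SAGA and TFIID serve overlapping sets of genes, and stress-induced genes with a TATA box are known for their reliance on SAGA. Gcn5 is known in particular as a coactivator at promoters of the phosphate starvation pathway and of Gcn4, the activator of amino acid synthesis genes.

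The 2 gcn5 ts2 arrays, A and B, had exchanged dyes and shared their slides with gcn5 arrays A and B. Values below are log2 changes of the test strain over the WT reference, less the median of the array, so 0 is the median spot and a change common to all mRNA cannot be seen. The median deposited ratio was 0.744 and 0.622 on the gcn5 ts2 arrays and 0.329 to 1.21 on the ts2 arrays. Of the 5548 genes on the array, 5540 had values above 0 on both gcn5 ts2 arrays and at least 4 ts2 arrays and were tested. The test was limma's moderated test in a model over all 38 arrays, with p-values adjusted by Benjamini and Hochberg over all genes tested, and a gene is called when its adjusted p is under 0.05. Across genes the 2 gcn5 ts2 arrays correlated with each other at r = 0.906, and with single ts2 arrays at 0.494 to 0.793. These are descriptions across 5434 to 5540 genes that share arrays and reference, not tests.

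The targeted gene was low where the labels say so. GCN5 stood at -3.42 and -3.0 on the gcn5 ts2 arrays and at -2.21 and -2.85 on the gcn5 arrays. On the 6 ts2 arrays its lowest, median and highest values were -0.17, 0.10 and 0.31. The difference of gcn5 ts2 from ts2 was -3.29 (SE 0.20, limma adjusted p = 7.9e-12), 9.81-fold lower. TAF1 mRNA was at -0.14 and 0.03 in gcn5 ts2 and at 0.01 to 0.56 in ts2, and the difference of -0.30 (SE 0.15) was not called (limma adjusted p = 0.177). The allele is a mutation of the protein, so its mRNA level does not check the label. Of the other subunits of the Gcn5 module, ADA2 differed by 0.13 (SE 0.15), NGG1 by 0.05 (SE 0.15) and SGF29 by 0.18 (SE 0.21), and none of these 3 was called.

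**Figure D1:**
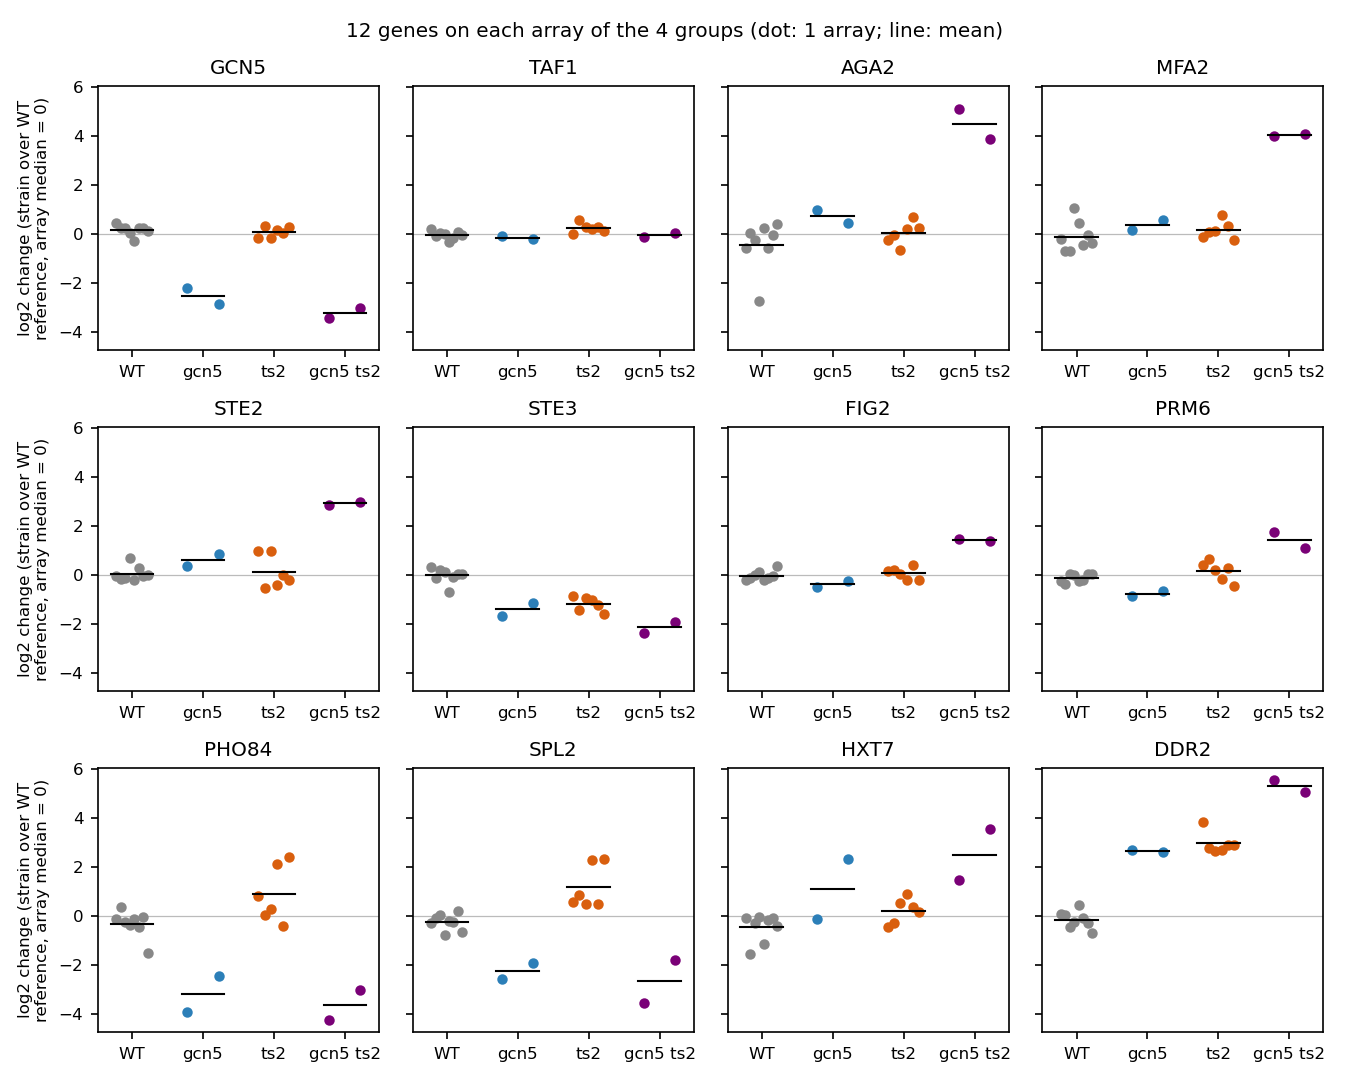
Log2 change over WT reference (array median at 0) of 12 genes on every array of WT (8 arrays), gcn5 (2), ts2 (6) and gcn5 ts2 (2), with dots for arrays and lines for group means. GCN5 is at -2.21 or lower on all 4 arrays of the gcn5 mutants, AGA2, MFA2 and STE2 are high on the gcn5 ts2 arrays, and PHO84 and SPL2 are low on all arrays of the gcn5 mutants.

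Loss of GCN5 in ts2 cells went with changes in both directions. Of the 5540 genes, 1260 (22.7%) were called, 610 of them higher (11%) and 650 lower (11.7%). The counts for gene lists below are to be read beside these shares. At least 2-fold changes were called for 136 genes on the higher side (2.45%) and 154 on the lower side (2.78%). Both gcn5 ts2 arrays lay above all ts2 arrays for 797 genes (14.4%) and below all of them for 895 (16.2%). With 1 gcn5 ts2 array left out the count of calls fell, to 547 without array A and 790 without array B. It also depended on the scaling, at 54 calls (14 higher, 40 lower) on the deposited scale and 81 (16 higher, 65 lower) after quantile normalization. The deposited scale moved the median of all genes by -0.209. Of the 33 gene lists described, all of which had a called member here, 6 had one on the deposited scale and 11 after quantile normalization. Using only the 8 arrays with title numbers 29 to 33, where WT, gcn5, ts2 and gcn5 ts2 have 2 arrays each, 1295 genes were called and 904 of the 1260 kept their call and direction.

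**Figure D2:**
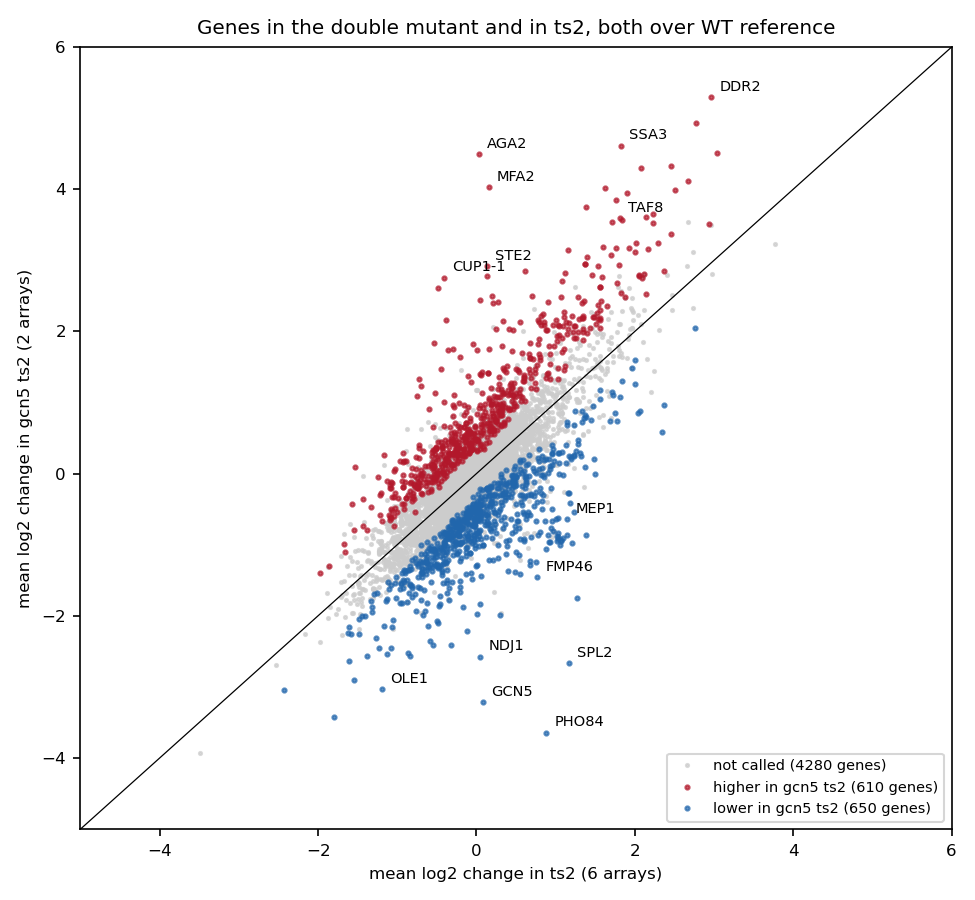
Mean log2 change over WT reference in gcn5 ts2 (2 arrays, vertical axis) against that in ts2 (6 arrays, horizontal axis) for 5540 genes, with the line of equal change. Red and blue dots are the 610 genes called higher and the 650 called lower in gcn5 ts2, and grey dots were not called.

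The deepest falls were in the listed phosphate (PHO) regulon, made up mainly of genes that the activator Pho4 switches on when phosphate is short. Of its 21 genes tested, 13 fell and the other 8 were not called, with a median difference of -0.98 against 0.01 over all genes tested. PHO84, the high-affinity phosphate transporter, stood at -4.26 and -3.03 on the gcn5 ts2 arrays. On the ts2 arrays its lowest, median and highest values were -0.40, 0.54 and 2.42, and on WT arrays it ran from -1.50 to 0.38. Both double mutant arrays were thus below every ts2 and WT array, and the difference was -4.52 (SE 0.60, limma adjusted p = 2.4e-06), 22.9-fold lower. SPL2, which encodes a small regulator of low-affinity phosphate transport, was at -3.54 and -1.79 against 0.49 to 2.33 in ts2, a difference of -3.84 (SE 0.43, limma adjusted p = 2.24e-07). The phosphate-repressible acid phosphatases fell by 1.77 (PHO5, SE 0.33), 1.86 (PHO11, SE 0.33) and 2.08 (PHO12, SE 0.39), and the vacuolar phosphatase PHO8 fell by 1.68 (SE 0.19). PHO11 and PHO12 are near-identical copies that these spots cannot tell apart.

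The 4 listed genes of the vacuolar polyphosphate synthesis complex also fell. VTC3 was at -2.55 and -1.42 in gcn5 ts2 and at -0.21 to 1.03 in ts2, and fell by 2.28 (SE 0.32, limma adjusted p = 5.09e-06). VTC4 fell by 1.53 (SE 0.24), VTC1 by 1.17 (SE 0.24) and VTC2 by 0.98 (SE 0.15). PHO81, the inhibitor of the kinase that keeps Pho4 out of the nucleus, fell by 0.79 (SE 0.19), PHM8 by 0.91 (SE 0.20) and PHO3 by 0.43 (SE 0.14). The transporter PHO89 was split, at -1.47 and 0.06, and its difference of -1.26 (SE 0.92) was not called. Array A was the lower of the pair for PHO84, SPL2, VTC3, PHO11 and PHO12, and in gcn5 the array A on the same slide was also the lower one. In gcn5 with normal TAF1, 13 PHO genes were lower than in WT with a median of -0.84, and no PHO gene had a called difference between its gcn5 effects in ts2 and in normal cells. Without gcn5 ts2 array A 10 genes of the list fell, and without array B 12 did. On the deposited scale 6 fell.

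Genes of the general stress response, which Msn2 and Msn4 activate, had a high median in ts2, and a part of them rose further in the double mutant. Of 63 tested, 28 rose, 4 fell and 31 were not called, with a median difference of 0.59. The median of the list was 2.14 and 2.27 on the gcn5 ts2 arrays, 1.52 to 2.10 on the ts2 arrays and 0.69 and 0.72 on the gcn5 arrays. DDR2, a stress gene of unknown biochemical role, was at 5.54 and 5.04 in gcn5 ts2 and at 2.66, 2.83 and 3.85 (lowest, median, highest) in ts2. Both double mutant arrays lay above all ts2 arrays, and the difference was 2.33 (SE 0.28, limma adjusted p = 4.92e-07). CTT1, the cytosolic catalase, was at 4.80 and 5.06 and rose by 2.15 (SE 0.29). TKL2, a transketolase, was at 4.20 and 3.82 against 0.95 to 2.46 in ts2, and rose by 2.38 (SE 0.39, limma adjusted p = 5e-05). The small heat shock protein gene HSP26 rose by 1.47 (SE 0.27), and TSL1, of the trehalose synthase complex, by 1.47 (SE 0.31). The 4 that fell were TSA2 and TRX2, of the thioredoxin system, GPD1, the glycerol 3-phosphate dehydrogenase, and RCN2, by 1.18, 0.69, 0.90 and 0.93.

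The count of stress genes called higher was 20 without gcn5 ts2 array A, 15 without array B, 17 with the number block in the fit, 5 on the deposited scale and 1 after quantile normalization, where the median difference was 0.10. Glycogen genes did not move together: GPH1, the phosphorylase that breaks glycogen down, was at 3.66 and 3.84 against -0.43, 1.59 and 2.55 in ts2 and rose by 2.37 (SE 0.59, limma adjusted p = 0.00368). GSY1, a glycogen synthase, was at -1.22 and -1.34 against 0.46, 0.70 and 0.91 and fell by 1.96 (SE 0.22, limma adjusted p = 2.68e-07). The GPH1 call was lost without gcn5 ts2 array A, where the difference was 2.00. The metallothionein genes CUP1-1 and CUP1-2, identical copies listed with the stress genes, were far apart on the 2 double mutant arrays, at 4.14 and 1.37 for CUP1-1. On the ts2 arrays CUP1-1 ran from -1.62 to 0.48, and it rose by 3.16 (SE 0.40, limma adjusted p = 1.21e-06). Without gcn5 ts2 array A the difference was 1.97, and without array B it was 4.36.

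Of 28 chaperone genes under Hsf1, 2 were higher (7.14%), 4 lower (14.3%) and 22 not called. These shares are near the 11% higher and 11.7% lower over all genes tested. SSA3, a heat-inducible Hsp70, was at 4.57 and 4.66 against 1.19, 1.84 and 2.38 in ts2 and rose by 2.79 (SE 0.65, limma adjusted p = 0.00229); without gcn5 ts2 array A the difference was 2.60 and no longer called. Its relative SSA4 was at 2.77 on both arrays and rose by 0.72 (SE 0.25). KAR2 and ERO1, the Hsp70 and the oxidase for disulfide bonds of the endoplasmic reticulum, were lower by 1.23 (SE 0.15) and 1.04 (SE 0.15). KAR2 stood at -0.74 and -0.73 in gcn5 ts2 and between 0.42 and 0.63 on all 6 ts2 arrays. In the proteasome list RPN4, its transcriptional activator, rose by 1.03 (SE 0.19) and SCL1, a core subunit, by 0.38 (SE 0.10), while 30 of 32 genes were not called.

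**Figure D3:**
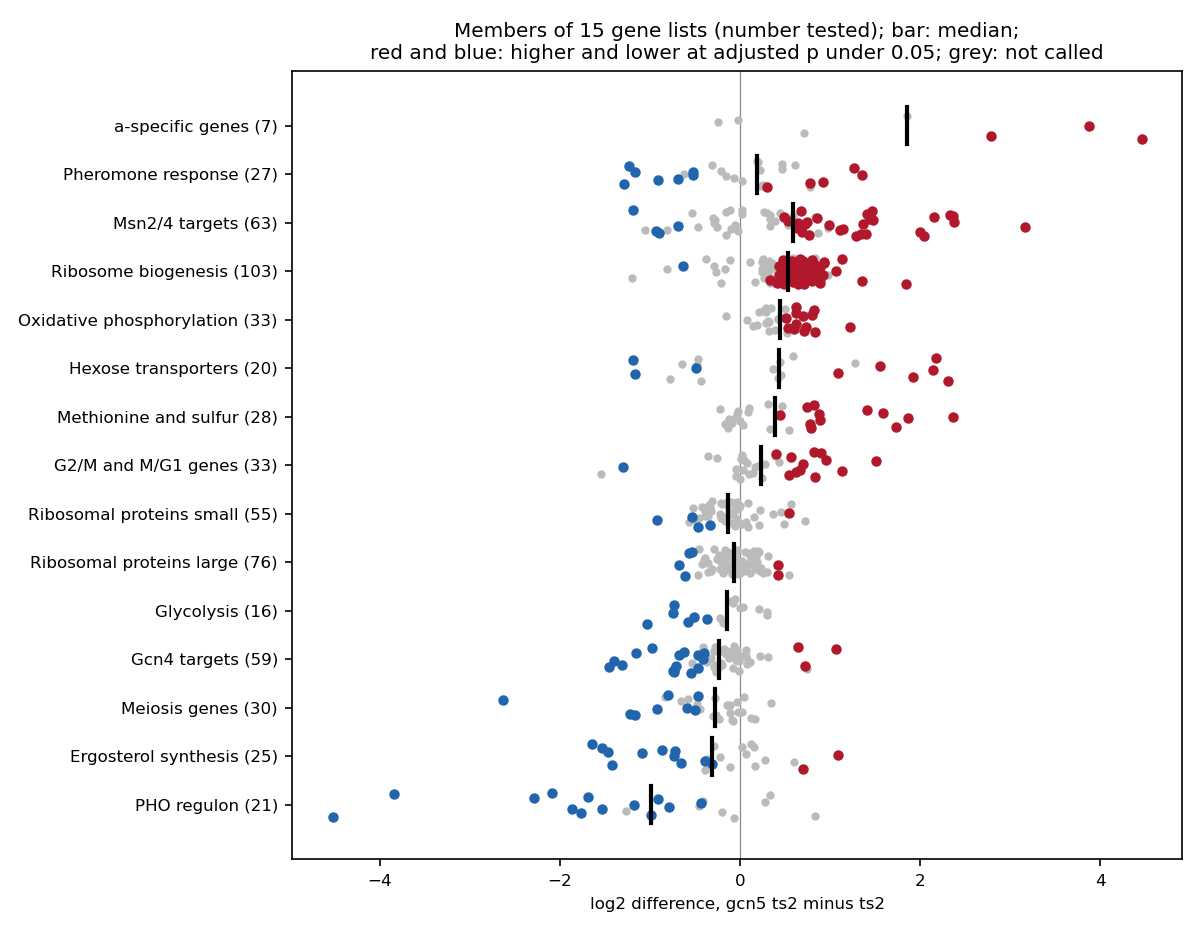
Log2 difference of gcn5 ts2 minus ts2 for each member of 15 gene lists, with the number tested in parentheses, a bar at the list median, red and blue for genes called higher and lower, and grey for those not called. PHO genes lie to the left, with 13 of 21 lower, and ribosome biogenesis genes to the right, with 60 of 103 higher.

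Genes that build ribosomes were higher in the double mutant than in ts2, while genes of the ribosomal proteins themselves mostly stayed uncalled. Of 103 ribosome biogenesis genes tested, 60 rose, 1 fell (UTP30, by 0.63) and 42 were not called, with a median difference of 0.53. The median of the list ran from -0.68 to -0.43 on the 6 ts2 arrays and stood at 0.27 and -0.30 on gcn5 ts2 arrays A and B, so both were above all ts2 arrays, but far apart. Without array A 12 genes of the list were called higher and the median difference was 0.33; without array B it was 60 genes and 0.71. On the deposited scale, with all genes shifted by -0.209, the median was 0.32. There limma called 0 genes of the list, with 2 higher and 1 lower at an unadjusted p under 0.05. After quantile normalization the median was 0.43 and limma called 2 higher. At an unadjusted p under 0.05, 39 were then higher and 0 lower. The RNA helicase gene DHR2 was at 0.75 and 1.44 against -1.0 to -0.61 in ts2 and rose by 1.85 (SE 0.16, limma adjusted p = 3.23e-09). RRP12, for export of ribosomal subunits, was at 1.25 and 1.33 against -0.72 to 0.81 and rose by 1.36 (SE 0.26, limma adjusted p = 0.000256). RRP12 was at 0.81 and 0.52 on ts2 arrays A and D, in the number block of both gcn5 ts2 arrays. On the other ts2 arrays it was at -0.72 to -0.01, so part of the RRP12 rise rests on those arrays. Another helicase gene, DBP2, was at 0.31 and -1.16 against -2.17 to -0.79 in ts2 and rose by 1.14 (SE 0.26). Its value on gcn5 ts2 array B was thus inside the ts2 range.

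Of the ribosomal proteins, 2 of 76 large subunit genes rose and 4 fell, and 1 of 55 small subunit genes rose and 4 fell. Their median differences were -0.06 and -0.13, which turned to 0.07 and 0.02 after quantile normalization. On the arrays with title numbers 29 to 33 alone they were 0.08 and 0.04. There 2 large subunit genes were called higher and 1 lower, and 3 small subunit genes higher and 0 lower. The first median was also above 0 with the number block in the fit, at 0.02, and without gcn5 ts2 array B, at 0.01. The large subunit list had a median of -0.91 and -1.16 in gcn5 ts2, inside its range of -1.21 to -0.63 on the ts2 arrays. Among those called, RPL28 fell by 0.68 (SE 0.20) and RPS27B by 0.91 (SE 0.27), and RPS8A rose by 0.54 (SE 0.16). RPS27B was at -0.92 and -1.16 in gcn5 ts2. It was at -0.75 and -1.15 on ts2 arrays A and D, which have title numbers from 29 to 33, and at 0.16 to 0.41 on the others. Leaving out gcn5 ts2 array A, limma called 0 genes of either list; at an unadjusted p under 0.05, 1 large subunit gene was higher and 4 lower, and 1 small subunit gene was higher and 8 lower. Leaving out array B, it called 1 large subunit gene. Many of these genes have near-identical copies, which the spots may not tell apart.

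**Figure D4:**
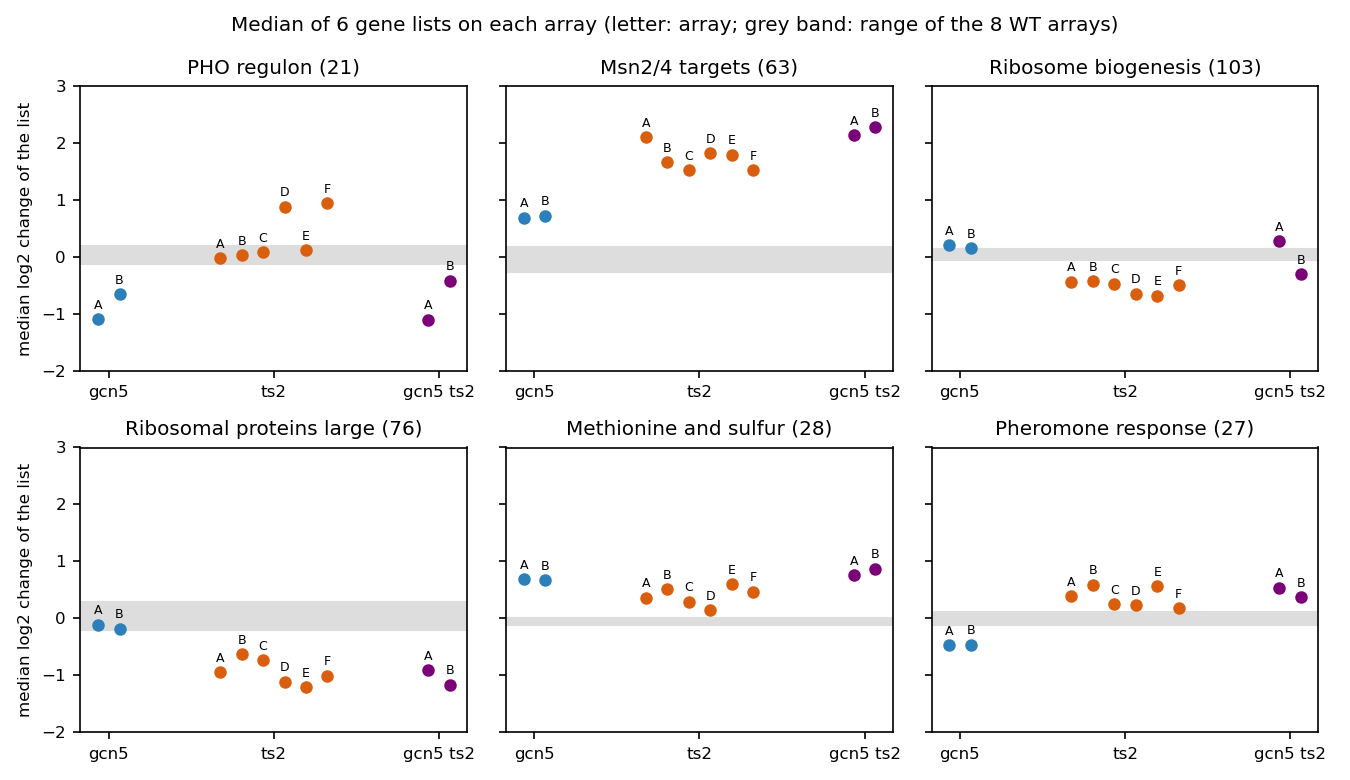
Median log2 change of 6 gene lists (number of genes tested in parentheses) on each array of gcn5 (A and B), ts2 (A to F) and gcn5 ts2 (A and B), with a grey band for the range of the 8 WT arrays. The gcn5 ts2 arrays differ from each other most for the PHO regulon (-1.10 and -0.42) and ribosome biogenesis (0.27 and -0.30).

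Calls among methionine and sulfur genes were all on the higher side, and those among targets of Gcn4 were mostly on the lower side. Of 28 methionine and sulfur genes, 12 rose and 16 were not called, with a median difference of 0.39. MUP1, the high-affinity methionine permease, was at 3.34 and 3.79 against 1.54, 1.86 and 2.11 in ts2 and rose by 1.73 (SE 0.21, limma adjusted p = 5.88e-07). MET6, the methionine synthase, was at 2.65 and 3.26 against 1.07 to 1.81 and rose by 1.59 (SE 0.31). STR3, a cystathionine beta-lyase, rose by 1.87 (SE 0.46) and the S-methylmethionine permease MMP1 by 2.37 (SE 0.33, limma adjusted p = 6.95e-06), with 1.38 and 2.28 in gcn5 ts2 against -1.91 to 0.06 in ts2. MUP3, a low-affinity permease, was at 2.09 and 2.40 and rose by 1.41 (SE 0.12). The number higher was 11 without gcn5 ts2 array A and 5 without array B. On the deposited scale limma called 1 gene of the list higher, with 5 higher at an unadjusted p under 0.05. After quantile normalization it called 1, with 4 higher at an unadjusted p under 0.05. In gcn5 with normal TAF1, 17 genes of the list were higher than in WT.

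Of 59 Gcn4 targets tested, 16 fell, 3 rose and 40 were not called, with a median difference of -0.23. HIS4, of histidine synthesis, was at 0.66 and 1.29 against 1.96, 2.28 and 2.72 in ts2 and fell by 1.39 (SE 0.21, limma adjusted p = 1.37e-05). HIS1 was at -0.59 and -0.41 against 0.54 to 1.54 and fell by 1.45 (SE 0.19), and the aspartate pathway genes HOM2 and HOM3 fell by 1.31 (SE 0.12) and 0.97 (SE 0.18). GCV3, of the glycine cleavage system, fell by 1.15 (SE 0.13). All of these values lay below every ts2 array. The 3 that rose were CPA1, of arginine synthesis, by 1.07, LEU4 by 0.73 and GLN1, the glutamine synthetase, by 0.64. Without gcn5 ts2 array A 5 genes of the list fell and without array B 8 did. On the deposited scale limma called 0 genes of the list, with 5 lower and 0 higher at an unadjusted p under 0.05. After quantile normalization it called 4 lower and 0 higher, with 9 lower at an unadjusted p under 0.05. The medium lacked histidine for all strains.

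Some genes of respiration rose and some of glycolysis fell. Of 33 genes of oxidative phosphorylation, 13 rose and 20 were not called, with a median difference of 0.45. ATP15 and ATP16, of the ATP synthase, were at 0.96 and 0.91 and at 0.62 and 0.59, against ranges of -1.24 to 0.14 and -0.59 to 0.05 in ts2. They rose by 1.22 (SE 0.22) and 0.83 (SE 0.11, limma adjusted p = 4.91e-06). QCR2, of the cytochrome bc1 complex, rose by 0.80 (SE 0.18) and COX13, of cytochrome oxidase, by 0.83 (SE 0.18). The number higher was 8 without gcn5 ts2 array A, 7 without array B and 1 after quantile normalization. On the deposited scale limma called 0 genes of the list, and at an unadjusted p under 0.05 also 0. In the citrate and glyoxylate cycle MDH2, the cytosolic malate dehydrogenase, was at 2.52 and 2.89 against 0.77, 1.03 and 1.66 and rose by 1.63 (SE 0.22). ICL1, the isocitrate lyase, fell by 1.12 (SE 0.18), and 3 further genes of 20, IDH1, IDH2 and ACO1, rose by 0.38 to 0.57; IDH2 and ACO1 turned lower after quantile normalization, and without gcn5 ts2 array B 1 gene of this list was called higher.

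Of 16 glycolysis genes 6 fell and 10 were not called, with a median difference of -0.14, which was 0.02 without gcn5 ts2 array A. ADH1, the main alcohol dehydrogenase, was at 0.55 and 0.93 against 1.50, 1.83 and 1.97 and fell by 1.02 (SE 0.15, limma adjusted p = 9.29e-06). TDH1 fell by 0.74 (SE 0.17), the hexokinase HXK2 by 0.74 (SE 0.19), and GPM1, TPI1 and PGI1 by 0.57, 0.51 and 0.37. Without array A 1 gene of this list was called. GPM2, a relative of GPM1 outside the list, was at -1.21 and -1.26 against 0.11, 0.78 and 0.90 and fell by 1.90 (SE 0.17, limma adjusted p = 5.09e-09).

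Hexose transporters moved in both directions and differed between the 2 slides. Of 20 genes of the list, which includes their regulators, 6 rose (30%), 3 fell (15%) and 11 were not called. Over all genes tested 11% rose and 11.7% fell. HXT7, a high-affinity transporter, was at 1.45 and 3.56 in gcn5 ts2 and at -0.47, 0.26 and 0.88 in ts2, and rose by 2.31 (SE 0.60, limma adjusted p = 0.00529). HXT4 was at 0.78 and 2.16, and MTH1, a repressor of transporter genes, at 1.69 and 3.09. Array B was the higher one each time, and the gcn5 arrays split the same way, at -0.11 and 2.33 for HXT7 and -0.21 and 2.33 for MTH1. These B arrays are both on slide 33, and the part of the slide in the result was not tested. Without gcn5 ts2 array B the HXT7 difference was 1.22, no longer called, and 1 gene of the list was called higher. HXT6 and HXT7 are near-identical, so their spots report the same mRNA. HXT5, HXT9 and the sensor RGT2 fell by 1.19, 1.17 and 0.49.

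Sterol synthesis genes that were called were mostly lower. Of 25 tested, 11 fell, 2 rose (ERG25 by 1.09 and ERG3 by 0.70) and 12 were not called, with a median difference of -0.30. ERG27 was at -2.14 on both gcn5 ts2 arrays against -0.87, -0.65 and -0.24 in ts2 and fell by 1.53 (SE 0.12, limma adjusted p = 7.02e-10). ERG26, which acts with it in removing the C-4 methyl groups of the sterol precursor, was at -2.64 and -2.45 and fell by 1.42 (SE 0.14). ERG4 and HMG2 fell by 1.46 (SE 0.15) and 1.64 (SE 0.30). ERG27 was below every ts2 array, as were ERG26, ERG4 and HMG2. After quantile normalization limma called 3 genes of the list lower, and on the deposited scale 0, with 6 lower at an unadjusted p under 0.05. OLE1, the fatty acid desaturase, was already low in ts2, at -1.57, -1.21 and -0.78, and reached -3.33 and -2.74 in the double mutant, a fall of 1.84 (SE 0.21, limma adjusted p = 3.09e-07). SAY1, a sterol deacetylase, was at -2.17 and -2.25, but 1 ts2 array stood at 3.51; its fall of 2.09 (SE 0.64, limma adjusted p = 0.0176) was no longer called when either gcn5 ts2 array was left out.

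Meiosis genes, which are kept low in growing cells, were lower for 8 of 30 (26.7%) and not called for 22. NDJ1, for telomere clustering in meiosis, was at -2.63 and -2.52 against -0.37, -0.14 and 1.31 in ts2 and fell by 2.62 (SE 0.31, limma adjusted p = 3.67e-07). REC114, for meiotic recombination, and the sporulation genes SPR6 and SPS100 fell by 1.22 (SE 0.34), 1.17 (SE 0.20) and 0.92 (SE 0.21). Without gcn5 ts2 array A 4 genes of the list fell. Of 33 genes with a peak at G2/M or M/G1, 12 rose, 1 fell and 20 were not called. DSE4, a glucanase for separation of daughter from mother cells, was at 2.55 and 2.27 against 0.22 to 1.67 in ts2 and rose by 1.51 (SE 0.25). EGT2 and CTS1, which act in the same step, rose by 1.13 (SE 0.26) and 0.71 (SE 0.15), and the cyclin gene PCL9 fell by 1.30 (SE 0.21). The number higher was 7 without array A and 3 without array B, and limma called 0 of them higher under either other scaling, with 1 (deposited scale) and 2 (quantile) higher at an unadjusted p under 0.05. Of 42 G1/S genes 6 (14.3%) fell, near the 11.7% over all genes tested, and 36 were not called. In this list 1 gene fell without gcn5 ts2 array A and 3 without array B. Those that fell included MNN1 by 1.35 (SE 0.15) and PRI2, of DNA primase, by 1.29 (SE 0.31). PRI2 was at -0.79 and -0.83 in gcn5 ts2. It was at -0.58 and -0.50 on ts2 arrays A and D, which are in the number block of both gcn5 ts2 arrays. On the other ts2 arrays it was at 0.82 to 1.26, so most of the PRI2 fall rests on those arrays.

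Of the remaining largest rises, YAT1, the outer carnitine acetyltransferase of mitochondria, was at 2.51 and 2.38 against -0.71, 0.05 and 0.49 and rose by 2.40 (SE 0.24, limma adjusted p = 3.21e-08). PUT4, the proline permease, was at 2.79 and 2.91 against -0.02 to 1.42 and rose by 2.24 (SE 0.30). OYE3, an NADPH oxidoreductase, was at 2.03 and 2.31, but of the 5 ts2 arrays with a value 1 stood at -4.23, and its rise of 2.56 (SE 0.92, limma adjusted p = 0.0478) was lost under 7 alternatives other than the scalings. These were leaving out gcn5 ts2 array A (2.70) or B (2.41) or ts2 array B or C, the number block, the replicate block, and only the arrays of both groups. Of the remaining largest falls, FMP46, for a mitochondrial protein, was at -1.49 and -1.42 against 0.44, 0.74 and 1.18 and fell by 2.22 (SE 0.19). SMN1 was at -2.08 and -1.88 against -0.19 to 0.25 and fell by 1.98 (SE 0.12, limma adjusted p = 7.9e-12). IRC7, a cysteine desulfhydrase, fell by 1.88 (SE 0.19). Of the 28 largest rises and falls named here, 23 kept their call under every alternative run for them other than the 2 scalings, and 16 under those also. The filter on brighter spots kept genes whose whole-number ratios had a median denominator of at least 100. It left out AGA2, MFA2, STE2 and OYE3, so these had 19 alternatives where the others had 20.

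Most subunits of the 2 coactivators were not called, as was the case for most genes tested, of which 11% rose and 11.7% fell. Of 17 SAGA subunits, GCN5 not counted, UBP8, the deubiquitinase, fell by 0.84 (SE 0.13) and SPT8 rose by 0.45 (SE 0.11). Of 15 TFIID subunits only TAF8 was called. It was at 3.55 and 3.63 against 1.14, 1.63 and 2.62 in ts2, and stood at 1.18 and 1.15 in gcn5. Its rise was 1.78 (SE 0.29, limma adjusted p = 4.66e-05). TAF8 was at 2.61 and 2.62 on ts2 arrays A and D, in the number block of both gcn5 ts2 arrays. On the other ts2 arrays it was at 1.14 to 1.75, so part of the TAF8 rise rests on those arrays. HPA3, a relative of GCN5 that encodes an acetyltransferase, was at -1.14 and -1.19 against -0.47 to 0.20 in ts2 and 0.13 and -0.08 in gcn5, and fell by 1.03 (SE 0.16, limma adjusted p = 2.17e-05). SAS2, a MYST family acetyltransferase, was at -0.53 and -0.82, overlapping its ts2 range of -0.64 to 0.46, and fell by 0.71 (SE 0.23). Of 25 Mediator subunits, ROX3 and MED4 fell by 0.65 (SE 0.13) and 0.52 (SE 0.16). Of 11 histone genes HTA1 and HTB1 rose by 0.99 (SE 0.20) and 0.65 (SE 0.17), and the linker histone HHO1 fell by 0.72 (SE 0.21). On the deposited scale limma called 0 genes of the SAGA, TFIID, other acetyltransferase, Mediator and histone lists, and after quantile normalization also 0. At most 1 gene of each list had an unadjusted p under 0.05 in either of these settings.

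Of 7 genes that mark mating type a, 3 were far higher in the double mutant than in ts2. AGA2, the binding subunit of a-agglutinin, was at 5.10 and 3.89 in gcn5 ts2 and at -0.65, 0.08 and 0.70 in ts2. Its level was 0.98 and 0.45 in gcn5 and -2.74 to 0.39 on the WT arrays, and the difference from ts2 was 4.46 (SE 0.54, limma adjusted p = 6.48e-07), 22.0-fold higher. MFA2, a gene of the pheromone a-factor, was at 3.98 and 4.08 against -0.25, 0.10 and 0.77 and rose by 3.88 (SE 0.36, limma adjusted p = 1.09e-08). STE2, the receptor for alpha-factor, was at 2.86 and 2.99 against -0.55, -0.10 and 0.97 and rose by 2.79 (SE 0.37, limma adjusted p = 4.41e-06). AGA2, MFA2 and STE2 were left out by the filter on brighter spots, so their rises were not tested under it. The other 4 of the 7 genes were not called. The second a-factor gene MFA1 was at 1.36 and 2.76, within or just above a ts2 range of -1.60 to 2.67 (difference 1.86, SE 1.08). The protease BAR1 differed by 0.71 (SE 0.49), the a-factor exporter STE6 by -0.02 (SE 0.40) and ASG7 by -0.24 (SE 0.24). The median of the 7 genes was 1.36 and 2.76 on the gcn5 ts2 arrays, -0.12 to 0.30 on the ts2 arrays, 0.16 and 0.21 on the gcn5 arrays and -0.27 to 0.12 on the WT arrays.

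Markers of mating type alpha were low in all 3 mutant groups. The median of the 4 alpha-specific genes was -2.33 and -2.10 in gcn5 ts2, -2.57 to -1.12 in ts2, -1.95 and -1.50 in gcn5 and -0.76 to 0.36 on WT arrays. STE3, the a-factor receptor, was at -2.35 and -1.93 against -1.59, -1.12 and -0.85 in ts2 and fell by 0.97 (SE 0.20, limma adjusted p = 0.000853), the only 1 of the 4 called. MF(ALPHA)2, an alpha-factor gene, was at -4.05 and -3.82 in gcn5 ts2, -3.87 to -3.14 in ts2 and -3.32 and -3.14 in gcn5. The labels do not state the mating type of any strain, and its part in these results was not tested. Of 11 haploid-specific genes RME1, a repressor of meiosis, rose by 0.96 (SE 0.15), FUS3, GPA1, STE4 and NEJ1 fell by 0.69, 0.52, 0.52 and 0.43, and 6 were not called. In the haploid list 2 genes fell without gcn5 ts2 array A and 1 without array B. Of 8 genes often used as strain markers MET17 rose by 0.82 (SE 0.17), and CAN1 and LYS2 fell by 0.66 and 0.40. HIS3, URA3, LEU2, TRP1 and ADE2 were not called.

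Pheromone response genes split. Of 27 tested, 5 rose (18.5%), 7 fell (25.9%) and 15 were not called, against 11% and 11.7% over all genes tested. Leaving out gcn5 ts2 array A, 4 rose and 4 fell, and leaving out array B, 3 rose and 3 fell, where the median difference of 0.19 turned to -0.03. Under both other scalings limma called 0 genes of the list, with 2 higher and 4 lower (deposited scale) and 3 higher and 3 lower (quantile) at an unadjusted p under 0.05. FIG2 and PRM6, induced by pheromone through Ste12, were at 1.45 and 1.40 and at 1.75 and 1.08, against -0.22 to 0.39 and -0.45 to 0.63 in ts2. They rose by 1.36 (SE 0.17, limma adjusted p = 1.43e-06) and 1.27 (SE 0.21). STE12, the activator itself, rose by 0.93 (SE 0.16) and its partner KAR4 by 0.78 (SE 0.22), and PCL2 rose by 0.30 (SE 0.10). PRM5 and SST2, the latter a brake on the signal, fell by 1.29 (SE 0.21) and 1.16 (SE 0.20), KAR5 by 1.23 (SE 0.44) and PRM2 by 0.90 (SE 0.25). FUS1, the gene most used as a reporter of this pathway, was at 0.65 and 0.41 against a ts2 mean of 0.27, a difference of 0.25 (SE 0.26) that was not called.

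The second comparison asked whether the effect of gcn5 in ts2 cells differed from its effect with normal TAF1, as gcn5 ts2 minus ts2 minus gcn5. It was tested for 5536 genes in the same model, and 53 (0.957%) were called, 25 with a higher effect in ts2 (0.452%) and 28 with a lower one (0.506%). In 25 of the 53 the fitted effects had the same direction and the one in ts2 was larger, in 4 it was smaller, and in 24 the directions were opposite. On the deposited scale limma called 0 genes, with 65 at an unadjusted p under 0.05 against 607 on the scale used here, and after quantile normalization it called 2. Leaving out 1 array gave 21 calls without gcn5 ts2 array A, 39 without B, 19 without gcn5 array A and 31 without gcn5 array B. The gcn5 and gcn5 ts2 arrays of one letter share a slide, and with the slide as a random block the count was 134, the 53 among them, and with the letter as a replicate block 26. In the arrays with title numbers 29 to 33 alone it was 74, of which 26 were among the 53.

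The largest differences of effect on the higher side were those of 3 of the 7 a-specific genes, of CUP1 and of MF(ALPHA)2. No other a-specific gene had a called difference of effects. AGA2 had an effect of 4.46 in ts2 and 0.71 (SE 0.47) with normal TAF1, a difference of 3.75 (SE 0.72, limma adjusted p = 0.00637). MFA2 differed by 3.50 (SE 0.48, limma adjusted p = 0.000177) and STE2 by 2.18 (SE 0.50, limma adjusted p = 0.0248). For MF(ALPHA)2 the difference of 2.78 (SE 0.43) arose from an effect of -3.23 with normal TAF1 and of -0.45, not called, in ts2, where the gene was already low. SAG1, the alpha-agglutinin, differed by 1.84 in the same way. CUP1-1 and CUP1-2 differed by 2.75 (SE 0.53) and 2.66 (SE 0.56).

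Pheromone response genes held 6 of the 25 genes with a higher effect in ts2. PRM6 was lower by 0.76 in gcn5 than in WT and higher by 1.27 in gcn5 ts2 than in ts2, a difference of 2.03 (SE 0.28, limma adjusted p = 0.000177). AGA1, the anchor subunit of a-agglutinin, differed by 1.94, with -1.38 and -0.95 in gcn5 and 1.48 and 1.54 in gcn5 ts2. FIG2 differed by 1.72 (SE 0.23), KAR4 by 1.53, FUS2 by 1.09 and STE12 by 0.96. In gcn5 with normal TAF1, 12 of the 27 genes were lower than in WT.

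On the lower side, ARG1, HOM3, MEP1 and SMF1 were higher than the array median on all ts2 arrays and lower in gcn5 ts2 than on any of them. ARG1, of arginine synthesis, was at 2.01 and 2.09 in gcn5 ts2, 2.34, 2.72 and 3.30 in ts2 and 0.95 and 0.43 in gcn5, with a difference of effects of -1.39 (SE 0.31, limma adjusted p = 0.0185). HOM3 was at 0.40 and 0.13 in gcn5 ts2, 0.96 to 1.65 in ts2 and 0.30 and 0.14 in gcn5, and its effects differed by -1.19 (SE 0.24, limma adjusted p = 0.00874). MEP1, an ammonium permease, was at -0.60 and -0.69 in gcn5 ts2, 0.94, 1.06 and 1.48 in ts2 and -0.50 and -0.77 in gcn5, with a difference of -1.16 (SE 0.19, limma adjusted p = 0.00144). SMF1, a manganese transporter, differed by -1.13 (SE 0.23), the mitochondrial GTP carrier GGC1 by -1.10 (SE 0.27) and FIT2, a cell wall mannoprotein for iron uptake, by -1.28 (SE 0.31). OPI3, a phospholipid methyltransferase, and HPA3 differed by -1.07 and -1.05. Of the 59 Gcn4 targets 4 were among the 28 genes with a lower effect, ARG1, HOM3, ARG4 and GCV3.

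**Figure D5:**
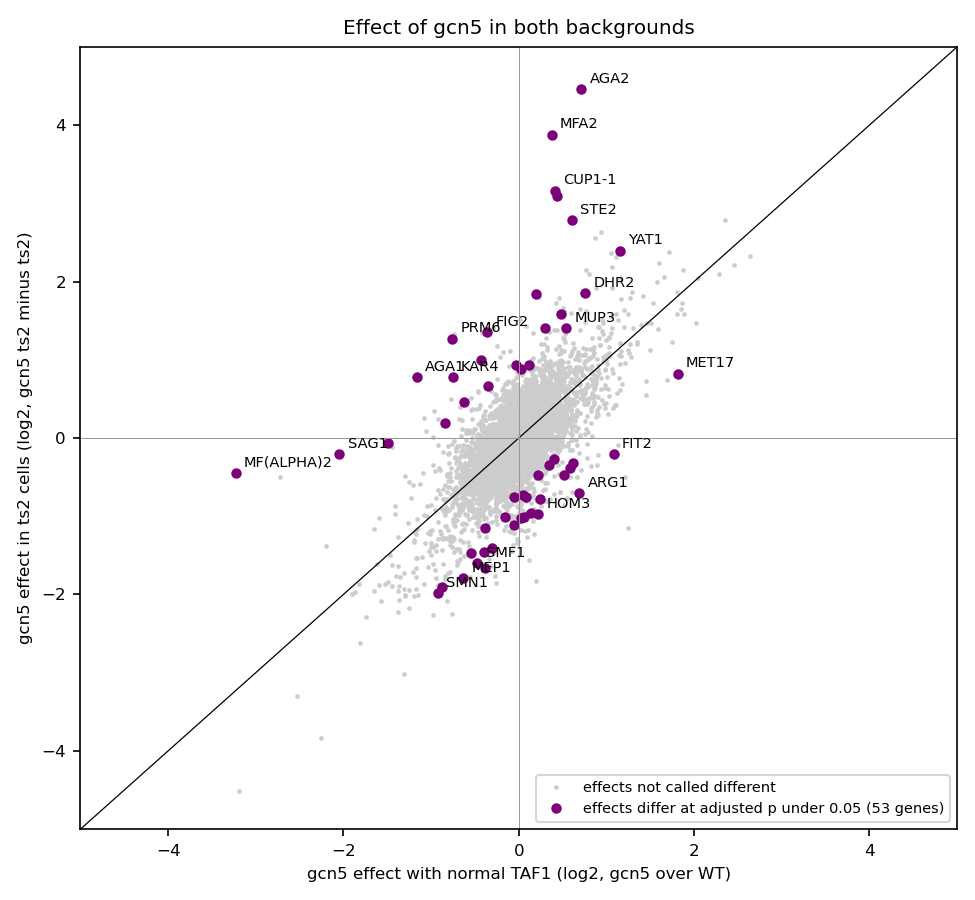
Effect of gcn5 in ts2 cells (gcn5 ts2 minus ts2, vertical axis) against its effect with normal TAF1 (gcn5 over WT, horizontal axis), both in log2, with the line of equal effects. Purple dots are the 53 genes whose effects differed at an adjusted p under 0.05, with AGA2 (3.75) and MFA2 (3.50) farthest above the line.

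For most called genes no such difference was called, and many were called in the same direction with normal TAF1. Against WT, gcn5 had 499 genes higher (9.01%) and 503 lower (9.09%). Of the genes higher in gcn5 ts2 than in ts2, 293 were also higher in gcn5, which is 48.0% of the 610 and 58.7% of the 499. Of those lower, 337 were shared, which is 51.8% of the 650 and 67.0% of the 503. Opposite calls were made for 3 and 4 genes. The gcn5 and gcn5 ts2 arrays of a letter share a slide, and the part of the slide in this overlap was not tested.

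Genes that responded to ts2 were followed on arrays not used to choose them. On ts2 arrays B, C, E and F, 202 genes were at least 2-fold higher than the WT reference on all 4 and 95 at least 2-fold lower. On the arrays with title numbers 29 to 33, the 202 genes had a median of 1.69 in ts2 and 1.96 in gcn5 ts2, with a median difference of 0.19. The 95 genes had medians of -1.46 and -1.43 and a median difference of -0.16, against 0.01 over 5400 genes. The quartiles of the differences were -0.25 and 0.67 for the 202 genes and -0.50 and 0.33 for the 95.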

How the data were processed

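The authors deposited 1 table of ratios of test strain over WT reference for 7056 spots on 38 arrays. Per the series text, data were mode normalized in R and corrected by spike controls. As deposited, 98.49% of values were ratios of whole numbers within rounding, against 4.06% of slightly changed values, so these steps do not show in it. Spot intensities and background were not analysed here. Ratios at or below 0 (0.752 to 4.229% per array) were set to missing, log2 values were taken, the array median was subtracted, and spots of a gene were averaged. Names came from the platform annotation (5574 of 5579 named spots matched, 1477 unnamed).

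limma 3.58.1 in R 4.3.3 fitted each gene over 38 arrays with WT fixed at 0 and a dye term (14 parameters, 24 residual and 2.97 prior degrees of freedom). For WT arrays, whose labels name no test dye, the dye sign followed the other array on the slide or the letter. Precision is limited by how few arrays there are. The difference of effects also required both gcn5 arrays and 6 WT arrays. Named genes were the 14 largest rises and 14 largest falls among called genes with a standard name and both gcn5 ts2 arrays outside the ts2 range, the 6 largest differences of effects each way, up to 4 called members of each of 33 lists, and the targeted genes with the Gcn5 module. Others named from the lists were chosen after their values were seen. The members and lists were chosen with earlier results of these data known. The fit was tested on simulated data. Letters do not pair gcn5 ts2 with ts2 arrays, whose letters are on different slides. A pairing check between gcn5 ts2 and ts2 arrays of a letter gave correlations of deviations of 0.245 for A and -0.105 for B. The gcn5 and gcn5 ts2 arrays of a letter share a slide and dye orientation, and this check was not run on them. A planned search of promoter motifs was not run.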

Additional observations from a re-analysis of the deposited data

Results flagged for a closer look

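Among the 135 genes named by the rules, 7 had 1 ts2 array far from the other 5 by Dixon's test. Chance flags about 1 in 20 such groups. On ts2 array A, MMP1 stood at -1.91 and DDR2 at 3.85. On ts2 array E, NDJ1 stood at 1.31, MDH2 at 1.66, ICL1 at 1.10 and ATX1, a copper chaperone, at -1.96. On ts2 array F, SAY1 stood at 3.51. The SAY1 fall is the only one of these 7 whose call depended on leaving out 1 gcn5 ts2 array, as given above.

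For 22 named genes the effect of gcn5 differed between ts2 cells and cells with normal TAF1 by limma's test of that difference. It was higher in ts2 by 3.75 for AGA2, 3.50 for MFA2, 2.78 for MF(ALPHA)2, 2.75 for CUP1-1, 2.66 for CUP1-2, 2.18 for STE2, 2.03 for PRM6, 1.24 for YAT1, 1.09 for DHR2 and 1.72 for FIG2. It was lower in ts2, with differences of -1.39 for ARG1, -1.28 for FIT2, -1.19 for HOM3, -1.16 for MEP1, -1.13 for SMF1, -1.10 for GGC1, -1.07 for OPI3, -1.06 for SMN1, -1.05 for HPA3, -1.03 for GPM2, -0.99 for MET17 and -0.77 for GCV3.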

How the results depend on the processing

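The count of 1260 genes called between gcn5 ts2 and ts2 was 54 on the deposited scale, 81 after quantile normalization and 653 with only the arrays of both groups in the fit. It ran from 547 to 1301 with 1 array left out, 547 and 790 being those without gcn5 ts2 array A and B, and from 963 to 1328 under the other alternatives (no dye term, no dye sign for WT, number block, numbers 29 to 33, slide as a random block, replicate block, no filter, array weights, brighter spots). The count of 53 for the difference of effects was 0 on the deposited scale, 2 after quantile normalization, 134 with the slide as a random block, 26 with the replicate block, 25 with only the arrays of the 4 groups, 19 to 66 with 1 array left out, and 40 to 77 otherwise. The replicate block, which uses the array letter, gave 1008 calls for the first comparison, where ts2 and gcn5 ts2 arrays of a letter share no slide. Quantile normalization, which gives WT arrays the spread of mutant arrays, also turned the sign of 5 of the 1260 and 2 of the 53 calls, among the named genes ACO1 (-0.59), IDH2 (-0.19) and, for the difference of effects, YAT1 (-0.084); otherwise the cause of these shifts was not tested. The filter on brighter spots and the alternatives for gene lists were chosen after seeing the data. With 1 of 2 arrays of a group left out, the remaining one is taken to have the spread of the other groups.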

Other observations

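Genes of iron supply and of the cell wall were called in both directions. Over all genes tested 11% rose and 11.7% fell. Of 29 iron genes, 5 (17.2%) fell, 2 (6.9%) rose and 22 were not called. Leaving out gcn5 ts2 array A, 2 fell, and leaving out array B, limma called 0 lower, with 8 lower at an unadjusted p under 0.05. The siderophore transporters ARN1 and ENB1 fell by 1.43 (SE 0.34) and 0.97 (SE 0.25), with ARN1 at -0.19 and -0.36 in gcn5 ts2 against 0.81 to 1.35 in ts2. ATX1 rose by 1.19 (SE 0.20) and ISU2, an iron-sulfur scaffold, by 0.73 (SE 0.16). Of 27 cell wall integrity genes, 6 (22.2%) fell, 5 (18.5%) rose and 16 were not called. With gcn5 ts2 array A left out 1 fell and 2 rose, and with array B left out 7 fell and 1 rose. SLT2, the kinase of that pathway, was at -0.23 and 0.23 against 0.78, 1.01 and 1.44 in ts2 and fell by 1.04 (SE 0.24), the mannoprotein CWP1 fell by 1.08 (SE 0.25) and PST1 rose by 0.84 (SE 0.23).

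Of 17 phospholipid genes, 4 fell (2 when array A or array B of gcn5 ts2 was left out) and 13 were not called, with OPI3 at -0.38 and -0.14 against 0.31 to 1.18 in ts2, a fall of 1.01 (SE 0.17). FAS2, of fatty acid synthase, fell by 0.55 (SE 0.18). Of 13 purine genes ADE16 and ADE6 (15.4%) fell by 0.72 and 0.39 and SHM1 (7.69%) rose by 1.28 (SE 0.35). Over all genes tested 11.7% fell and 11% rose. The median difference of the purine list was -0.06, and 0.13 without gcn5 ts2 array A. On the deposited scale and after quantile normalization limma called 0 genes of it, and at an unadjusted p under 0.05 also 0. SHM1 was at 1.49 and 1.97 in gcn5 ts2. It was at 1.69 and 1.53 on ts2 arrays A and D, which are in the number block of both gcn5 ts2 arrays. On the other ts2 arrays it was at -0.31 to 0.18, so the rise rests on those arrays. With the number block in the fit limma called 0 purine genes higher and 2 lower. Of 10 galactose genes GCY1 and MTH1 rose and PCL10 fell by 0.72. Of 39 genes of the COS and PAU families 3 fell (7.69%) and 2 rose (5.13%), below the 11.7% and 11% over all genes tested. Among those that rose was the anaerobic mannoprotein TIR3, by 2.06 (SE 0.42), at 1.52 and 1.15 against -1.48 to -0.21 in ts2. Under either other scaling limma called 0 genes of this list. At an unadjusted p under 0.05, 2 were then higher and 1 lower (deposited scale), and 1 higher and 0 lower (quantile).

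Beside GCN5 on its chromosome, NOP19 on one side differed by 0.70 (SE 0.18, limma adjusted p = 0.00441) and PUP2 on the other by 0.29 (SE 0.21, not called). The median difference of the genes on a chromosome ran from -0.15 for chromosome I to 0.10.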
